A study of Mus musculus with 24 samples.

Results

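The genes described are 10 that encode protein kinase C isoforms and diacylglycerol kinases: Prkca, Prkcb, Prkcd, Prkce, Prkci, Prkcz, Dgka, Dgkd, Dgke and Dgkz. They were chosen by symbol from the 13504 genes of the authors' deposited table, and all 10 were found in it. The kinase C genes were listed because RACK1 takes its name from binding activated protein kinase C. Dgke entered the list because of its large fold change in one of the lines compared here, so its value there is a description and not a test.

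Protein kinase C enzymes add phosphate to serine and threonine residues of other proteins. The classical isoforms (alpha and beta among them) respond to calcium and the membrane lipid diacylglycerol, a further class (delta and epsilon among them) responds to diacylglycerol without calcium, and the atypical isoforms (iota and zeta) respond to neither. Phospholipase C makes diacylglycerol from phosphoinositides, and diacylglycerol kinases end its signal by turning it into phosphatidic acid. RACK1, known as a docking protein for activated kinase C, is also a constituent of the small ribosomal subunit near the mRNA exit channel.

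All libraries came from mouse E14 embryonic stem cells whose RACK1 carried an auxin-inducible degron. With such a tag, indole-3-acetic acid (IAA), a plant hormone, joins the protein to the plant F-box protein TIR1 and has it degraded. In the Rps26Tir1 line (RACK1-AID/RPS26-Tir1 Ribo-Tweezer) TIR1 was coupled to RPS26, a small-subunit ribosomal protein, whereas the FreeTir1 control line had it free of the ribosome. Each line received IAA or DMSO for 12 h, and polyadenylated RNA of the free, the low-translation and the heavy-translation fractions was sequenced in 2 replicates, 24 libraries in all. The labels do not say that replicates were separate cultures, nor whether the fractions of a replicate came from the same preparation. The p-values thus measure the spread between these libraries, which need not be independent of each other. Neither the number of clones behind each line nor the promoter driving TIR1 is given in the sources used here.

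The values are those of the authors' comparison of IAA with DMSO within each line: a log fold change (read as log2), an average expression over libraries (a log2 level), a p-value and an adjusted p. Values of single libraries and fractions were not analysed here, and the read depth is unknown. Which treatment is the numerator is not stated in the header, so fold changes are called positive or negative. Positive means higher with IAA only if the usual order was used. Transcript amount and ribosome loading cannot be told apart in these values. Of the 10 embryonic stem cell markers listed, such as Pou5f1 and Nanog, all 10 were measured, with average expression from 6.90 to 10.8. Of 9 fibroblast feeder markers 4 were measured, from 0.15 to 3.53.

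Dgke had the smallest p-value of the 10 genes and the largest fold change, and it was the member that passed an adjusted p of 0.05. It encodes diacylglycerol kinase epsilon, an isoform known to prefer diacylglycerol with an arachidonoyl chain, the kind derived from phosphoinositides. In the authors' deposited table its log2 fold change in the Rps26Tir1 line was 0.74 with adjusted p = 0.00909, which is 1.67-fold. That value was one of the reasons for listing the gene. It ranked 20 by p-value in that line, and 12 by size among the 96 positive genes that passed and averaged at least 3 in expression. In the FreeTir1 line, measured in separate libraries, the authors' deposited table gave Dgke 0.30 with unadjusted p = 0.0452 and adjusted p = 0.674, so it did not pass there. The FreeTir1 value was the largest of the 10 members in that line as well, at the 94.3 percentile of all genes. A positive FreeTir1 value was common among genes with a positive call in the Rps26Tir1 line, at 84.5% of those other than Dgke.

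Prkcb and Prkca are the 2 kinase C genes with the largest fold changes of either sign. Their upstream regions and that of Dgke are printed to show what lies at the RefSeq start sites. They come from RefSeq, build GRCm38.p6, run from 250 bases before to 50 bases after the start, and are written 5′ to 3′ on the gene's strand. Capitals mark the GC box, GGGCGG or its reverse complement CCGCCC. The Dgke window is chr11:89060699-89060998 on the minus strand, the Prkcb window chr7:122288875-122289174 on the plus strand and the Prkca window chr11:108343839-108344138 on the minus strand.
Dgke: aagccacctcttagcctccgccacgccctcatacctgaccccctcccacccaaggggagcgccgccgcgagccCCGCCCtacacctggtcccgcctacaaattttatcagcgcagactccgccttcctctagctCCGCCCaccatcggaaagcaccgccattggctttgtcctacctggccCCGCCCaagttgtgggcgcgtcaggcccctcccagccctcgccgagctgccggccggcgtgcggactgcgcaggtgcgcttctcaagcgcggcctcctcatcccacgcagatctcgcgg
Prkcb: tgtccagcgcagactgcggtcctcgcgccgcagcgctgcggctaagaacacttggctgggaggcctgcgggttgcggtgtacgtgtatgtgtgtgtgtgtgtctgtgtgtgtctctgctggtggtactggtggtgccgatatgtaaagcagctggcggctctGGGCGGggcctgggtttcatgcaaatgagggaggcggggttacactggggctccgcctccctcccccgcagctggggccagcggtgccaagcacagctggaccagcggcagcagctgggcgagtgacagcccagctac
Prkca: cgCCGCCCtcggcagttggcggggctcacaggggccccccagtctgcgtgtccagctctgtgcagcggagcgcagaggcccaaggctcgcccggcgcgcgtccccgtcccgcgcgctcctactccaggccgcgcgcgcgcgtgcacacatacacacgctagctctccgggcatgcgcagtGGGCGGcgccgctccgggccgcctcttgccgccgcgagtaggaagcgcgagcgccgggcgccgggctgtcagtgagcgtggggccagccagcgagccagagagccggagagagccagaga
The Dgke window held 3 GC boxes, that of Prkca 2 and that of Prkcb 1. By symbol, 9 of the 10 members matched the RefSeq entries, and Prkce was not matched. All 9 had a GC box in a listed window, against 69.1% of the 10639 genes of the deposited table that matched. The AP-1 element known for its response to phorbol ester activators of kinase C, searched as TGACTCA or TGAGTCA on both strands, occurred in 0 of the 16 windows listed for these 9 genes and in 5.20% of all 32851 windows. These are matches of letters, not evidence of binding, and the fold changes do not bear on them directly.

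The 10 genes together were not shifted to one side. In the Rps26Tir1 line 1 of 10 had adjusted p under 0.05, where 1.64% of all genes did (1.1% with a positive value). In the FreeTir1 line 0 of 10 did, where 0% of all genes did. At an unadjusted p under 0.05 there were 4 of 10 in the Rps26Tir1 line (Dgke, Prkcb, Prkcd and Prkca), where 16.3% of all genes reached it. Of these 3 were positive and 1 negative, where 9.55% and 6.72% of all genes were. The count was 1 of 10 (Dgke) in the FreeTir1 line, where 6.69% did. The list is short and was chosen with such values known, so these counts are a description. The median fold change of the 10 was 0.00 for FreeTir1 and -0.04 for Rps26Tir1, against 0.00 and 0.01 over all genes. Signs were positive for 5 of 10 and 4 of 10 members, where 48.6% and 53% of all genes were positive. The fold change was larger in absolute size in the Rps26Tir1 line for 9 of 10 members (Dgka was the other), as it was for 59.2% of all genes.

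**Figure D1:**
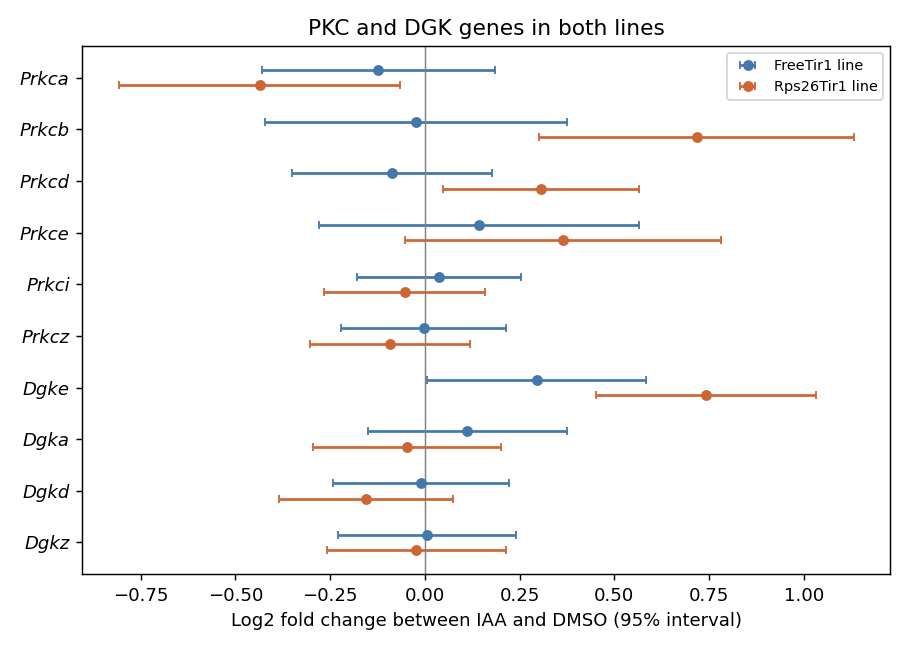
Log2 fold change between IAA and DMSO (x axis) of each of the 10 genes (y axis) in the FreeTir1 line (blue) and the Rps26Tir1 line (orange); bars are 95% intervals worked back from the deposited p-values. In the Rps26Tir1 line Dgke, Prkcb and Prkcd lie to the right of 0 and Prkca to the left with their whole interval, whereas the other 6 intervals cover 0.

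The classical isoforms went in opposite directions in the Rps26Tir1 line. Prkcb encodes protein kinase C beta, an isoform well known for binding RACK1 when active. In the authors' deposited table it had 0.72 in the Rps26Tir1 line, with unadjusted p = 0.00139 and adjusted p = 0.0602, just outside the threshold. Its FreeTir1 value per the authors' deposited table stood at -0.02 (adjusted p = 0.991). Prkca encodes protein kinase C alpha, and per the authors' deposited table it had -0.44 in the Rps26Tir1 line with unadjusted p = 0.0228 and adjusted p = 0.211. Its FreeTir1 value per the authors' deposited table stood at -0.12 (adjusted p = 0.920). Both mRNAs were scarce, with average expression of 1.27 for Prkcb and 2.09 for Prkca, and neither fold change passed over all genes. The standard errors worked back for the Rps26Tir1 line were 0.203 and 0.181, against 0.128 for the median gene of the table.

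The calcium-independent isoforms delta and epsilon both had positive values in the Rps26Tir1 line, and neither passed over all genes. Prkcd encodes protein kinase C delta, known for roles in apoptosis, and per the authors' deposited table it had 0.31 there with unadjusted p = 0.0220 and adjusted p = 0.207. In the FreeTir1 line, per the authors' deposited table it had -0.09 with adjusted p = 0.938. Prkce encodes protein kinase C epsilon and had 0.36 in the Rps26Tir1 line, per the authors' deposited table with adjusted p = 0.378. Its FreeTir1 value per the authors' deposited table stood at 0.14 (adjusted p = 0.936). Prkcd was moderately expressed, at 4.26, whereas Prkce was the least expressed of the 10, at 1.25. The 95% interval of Prkce in the Rps26Tir1 line ran from -0.05 to 0.78.

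The atypical isoforms, which act in cell polarity with PAR6 and PAR3, had values close to 0. Prkci, the gene of protein kinase C iota, had -0.05 in the Rps26Tir1 line with adjusted p = 0.847 and 0.04 in the FreeTir1 line with adjusted p = 0.974, both per the authors' deposited table. For Prkcz, the gene of protein kinase C zeta, the authors' deposited table held -0.09 (adjusted p = 0.703) and 0.00 (adjusted p = 0.998) in the same order. Prkci was the more abundant, with an average expression of 6.13 against 4.73, and per kilobase of transcript the log2 levels were 3.89 and 3.33. The 95% intervals in the Rps26Tir1 line ran from -0.27 to 0.16 for Prkci and from -0.30 to 0.12 for Prkcz. The value of Prkcz is uncertain because 44.6% of the 31-base stretches of its transcript also occur in Prkcz2, a processed pseudogene on chromosome 7, so that its reads could be divided. For each of the other 9 members at most 1.97% of the stretches occur in transcripts of other genes.

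The 3 other diacylglycerol kinases had small values in both lines, and none passed over all genes. Dgka, the gene of the calcium-responsive kinase alpha, had -0.05 in the Rps26Tir1 line with adjusted p = 0.890 and 0.11 in the FreeTir1 line with adjusted p = 0.915 per the authors' deposited table. Dgkd, which encodes kinase delta, had -0.15 and -0.01, with adjusted p of 0.526 and 0.994, per the authors' deposited table. Dgkz, which encodes kinase zeta, had -0.02 and 0.01, with adjusted p of 0.951 and 0.997, per the authors' deposited table. In the Rps26Tir1 line their 95% intervals ended at 0.20, 0.08 and 0.21 on the positive side, below the Dgke interval, which ran from 0.45 to 1.03. Intervals of different genes in the same libraries are not independent, and Dgke was chosen for its value. Dgkz was the most abundant of the 10 mRNAs per kilobase of transcript, with a log2 level of 4.31. Among the diacylglycerol kinase genes Dgkd had 3.32, Dgke 2.89 and Dgka 2.60, so the kinase gene with the largest fold change was not the scarcest of the 4. Dgka shares bases with Pmel on the other strand, and Dgkd with Usp40. The values of Dgka and Dgkd are therefore uncertain to that extent, since whether counting used strand is not stated in the sources used here. Antisense genes that are not rows of the table also overlap Dgkd, Dgke, Prkca, Prkce and Prkcz. Pmel and Usp40 had -0.01 and 0.13 in the Rps26Tir1 line, per the authors' deposited table.

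**Figure D2:**
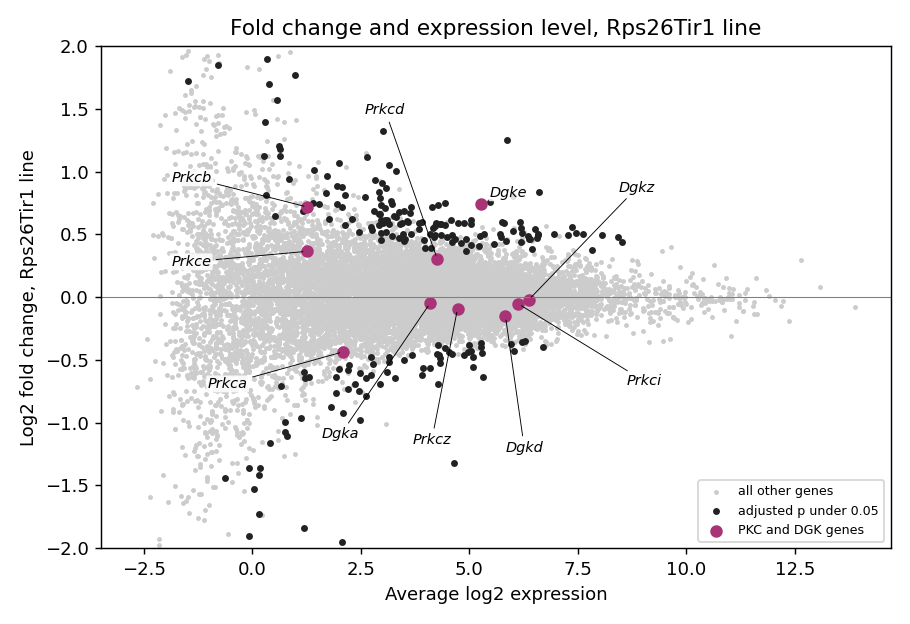
Log2 fold change in the Rps26Tir1 line (y axis) against average log2 expression (x axis) for all genes with a log2 fold change between -2 and 2 (91 genes lie outside); black points are genes with adjusted p under 0.05 and purple points the 10 members. Prkca, Prkcb and Prkce lie in the low-expression range where grey points spread widely, at averages of 2.09, 1.27 and 1.25. Dgke lies at an average of 5.27. Grey points leave out genes that passed, as Dgke did, so its distance from them is no further result.

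The spread of fold changes depended on expression. The 3 members with average expression below 3 (Prkca, Prkcb and Prkce) had a median absolute fold change of 0.44 in the Rps26Tir1 line, where genes with average expression from 1 to 3 had 0.19. The 7 members at 3 or above had 0.09, where all such genes had 0.10. Among those 7, Dgke and Prkcd were the members above 0.20 in absolute size. The median standard error in the Rps26Tir1 line was 0.168 for genes from 1 to 3 and 0.115 for genes at 3 and above.

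The lines were then compared directly, since passing in one line and not in the other is no test of a difference. The difference was taken as Rps26Tir1 minus FreeTir1, with standard errors worked back from the deposited p-values, and adjusted by the Benjamini-Hochberg method over 13504 genes. No member passed: 0 of 10 had adjusted p under 0.05, where 0.00741% of all genes did, and 3 of 10 had an unadjusted p under 0.05, where 6.18% did. Prkcb had the largest difference, 0.74 with a standard error of 0.281 (95% interval 0.16 to 1.32), unadjusted p = 0.0135 and adjusted p = 0.576 by this moderated test. For Dgke it was 0.45, standard error 0.200, (0.04 to 0.85) and adjusted p = 0.716, and this again rests on the value for which the gene was listed. Prkcd differed by 0.39 with a standard error of 0.180 (0.02 to 0.76) and adjusted p = 0.742. For Prkca the difference was -0.31 with an interval from -0.79 to 0.17.

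For the remaining 6 genes the interval of the difference covered 0. It ran from -0.37 to 0.81 for Prkce, from -0.39 to 0.21 for Prkci and for Prkcz, and from -0.52 to 0.20 for Dgka. For Dgkd it ran from -0.47 to 0.18 and for Dgkz from -0.36 to 0.30. These widths leave room for differences of up to 0.81 on the log2 scale in one direction and 0.52 in the other, so a missed threshold does not show that the lines acted alike on these genes. Independent errors in each line are assumed. The spread of the difference statistic was 0.90 over genes averaging at least 3 in expression, and whether the lines share errors was not tested.

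**Figure D3:**
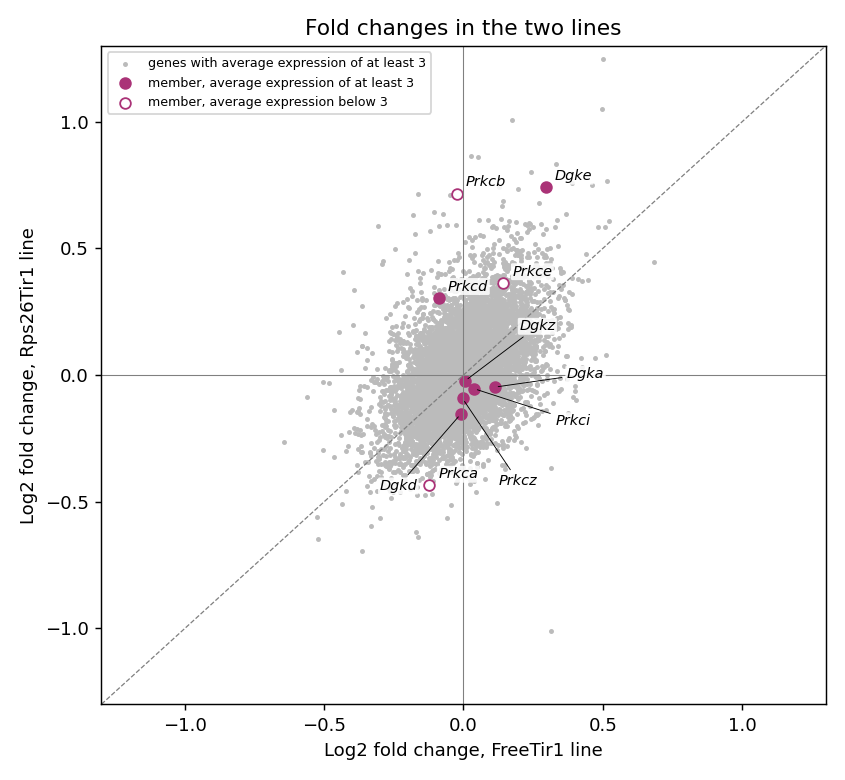
Log2 fold change in the Rps26Tir1 line (y axis) against that in the FreeTir1 line (x axis) for genes averaging at least 3 in expression (grey; 2 genes lie outside the range) and for the 10 members (purple, open where average expression is below 3); the dashed line marks equal values. Dgke, at 0.30 and 0.74, lies up and to the right with few genes around it, Prkcb and Prkcd have a positive value in the Rps26Tir1 line and a negative one in the FreeTir1 line, neither of which passed, and 5 members crowd near the origin.

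Dgke was set beside the genes with the most similar pair of fold changes. By distance in the plane of both values, over 8632 other genes averaging at least 3 in expression, the closest 5 were Zbtb41, Ticrr, Id3, Arid5b and Edrf1, at distances of 0.07 to 0.10. In the authors' deposited table their Rps26Tir1 values were 0.68, 0.80, 0.76, 0.83 and 0.73 and their FreeTir1 values were 0.27, 0.24, 0.39, 0.33 and 0.19. The likeness rests on 2 values per gene, and since the 5 were picked by those values, their sizes and calls carry no further information. The members of its own family were not near: Dgka, Dgkd and Dgkz had Rps26Tir1 values from -0.15 to -0.02.

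The transcripts named for the members, taken from GENCODE M21, shared a long coding region with many exons and differed in their untranslated regions. Coding lengths ran from 1695 bases in Dgke to 3663 bases in Dgkd, all above the median of 1383 bases over the table, and exon numbers ran from 11 in Dgke to 32 in Dgkz, above the median of 9. Dgke thus had the shortest coding region and the fewest exons of the 10. Its 3′ untranslated region was 3150 bases long, at the 89.2 percentile of all genes, while that of Prkca was 6129 bases and that of Dgka 289 bases. Prkca, with a negative value in the Rps26Tir1 line, had the longest transcript, 8409 bases, and Prkcb, with a positive one, had 2911 bases, close to the median of 2881.5 bases. Upstream ATG triplets were found in the annotated 5′ untranslated regions of Prkce (4) and Prkcz (1) and in none of the other 8, where the transcript model of Prkcd has no 5′ untranslated bases. Genes lie in GRCm38 as follows. Dgke occupies chromosome 11 from 89035179 to 89066850 on the minus strand. Prkca lies on the same chromosome from 107933387 to 108343928, also on the minus strand. Prkcb lies on chromosome 7 from 122288751 to 122634402 on the plus strand, and Prkcd on chromosome 14 from 30595354 to 30626210 on the minus strand. The RefSeq windows printed for Dgke and Prkcb lie wholly inside these spans, so they are not at the GENCODE 5′ ends.

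The remaining genes of diacylglycerol and kinase C signalling were taken from 11 lists set by function. Of 114 genes listed, 105 were measured. In the Rps26Tir1 line 1 of them had adjusted p under 0.05, or 0.952% against 1.64% of all genes, and in the FreeTir1 line 0 did, against 0%. At an unadjusted p under 0.05 the Rps26Tir1 line had 12 positive and 5 negative genes, or 16.2% against 16.3% of all genes, and the FreeTir1 line 3 genes, or 2.86% against 6.69%. The share of genes called in the pathway as listed was thus no higher than the background in either line. Rack1 itself had -0.05 with adjusted p = 0.892 in the Rps26Tir1 line, per the authors' deposited table. The degron acts on protein, so this value does not check the depletion.

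Dgat1 was the gene that passed. It encodes an acyltransferase that uses diacylglycerol to make triglyceride, and per the authors' deposited table it had -0.48 in the Rps26Tir1 line with adjusted p = 0.0466. Its FreeTir1 value per the authors' deposited table stood at -0.17 (adjusted p = 0.848). The call was close to the threshold: it ended at adjusted p = 0.0555 when genes averaging at least 3 in expression were adjusted alone. It also ended, at 0.0798, once trends in length, GC content and expression were taken out, although the fold change was then -0.44. The difference between the lines was -0.31 (95% interval -0.67 to 0.06).

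Among enzymes that make diacylglycerol, 13 of 15 phospholipase C genes were measured, and 6 of these averaged at least 3 in expression. In the Rps26Tir1 line 7 were positive (median 0.20), where 53% of all genes were. The gene at that median averaged 0.97 in expression, and the 6 ranged from -0.27 to 0.50. In the FreeTir1 line 11 were positive (median 0.16), where 48.6% of all genes were. None passed over all genes. Plcd1, a delta-type phospholipase C, had the smallest p of the list, with 0.50 and adjusted p = 0.0677 in the Rps26Tir1 line, per the authors' deposited table. In the FreeTir1 line, per the authors' deposited table Plcd1 had -0.25 with adjusted p = 0.815. Its difference between the lines was 0.75 (0.30 to 1.20) with unadjusted p = 0.00201 and adjusted p = 0.377 by the moderated test. The list of other C1 domain receptors held genes that bind diacylglycerol or are built like proteins that do. It also held Unc13d, a relative known to lack that domain. In the Rps26Tir1 line 10 of its 11 measured genes were positive (median 0.12), where 53% of all genes were. In the FreeTir1 line 5 of 11 were positive (median -0.03), where 48.6% of all genes were. Whether this list differed between the lines was not tested. None of the 11 passed over all genes in either line. Rasgrp1, a Ras exchange factor recruited by diacylglycerol, had 0.54 with adjusted p = 0.146 in the Rps26Tir1 line, per the authors' deposited table. Its average expression was low, at 1.24. Unc13d, Rasgrp4 and Cdc42bpg, named after their values were seen, were the other 3 of the list with unadjusted p under 0.05 (4 of 11, where 16.3% of all genes reached it), at 0.63, 0.41 and 0.26 per the authors' deposited table.

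Prkch, which encodes the eta isoform, did not pass in either line, with 0.46 and adjusted p = 0.526 in the Rps26Tir1 line, per the authors' deposited table at an average expression of 0.26. Of the other diacylglycerol kinases 5 of 7 were measured and 1 was positive in the Rps26Tir1 line, Dgkh, at 0.22 with adjusted p = 0.403 per the authors' deposited table. The median of that list was -0.09. The 6 PKN and PKD kinases had a median of -0.01. Prkd1 had their smallest p, at -0.55 with adjusted p = 0.219 per the authors' deposited table and an average expression of 0.69.

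List medians for partners, substrates and regulators of kinase C ran from -0.02 to 0.12 in the Rps26Tir1 line, against 0.01 over all genes. The 9 measured polarity partners of the atypical isoforms ranged from -0.19 to 0.19 with a median of -0.02. Wwc1 had the smallest p of that list, at 0.19 with adjusted p = 0.360 per the authors' deposited table. The 11 measured substrates and inhibitors had a median of 0.03. Their smallest p was that of Ppp1r14d, an inhibitor of protein phosphatase 1, at -0.51 with adjusted p = 0.201 per the authors' deposited table. Ppp1r14d had an average expression of 1.24. Among 11 genes that prime or dephosphorylate kinase C, 8 were positive with a median of 0.12, where 53% of all genes were positive. In the FreeTir1 line 8 were positive with a median of 0.04, where 48.6% of all genes were. Rictor, the mTORC2 subunit needed for priming of several isoforms, had 0.32 with adjusted p = 0.167 in the Rps26Tir1 line per the authors' deposited table. The 19 genes of phosphoinositide resynthesis had a median of 0.04, led by Pitpnb at -0.21 with adjusted p = 0.196 per the authors' deposited table. The 8 measured lipid phosphate phosphatases and lipins had a median of 0.09. Plpp3 had their smallest p, at 0.36 with adjusted p = 0.260 per the authors' deposited table and an average expression of 2.65. No gene of these lists passed over all genes in either line.

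**Figure D4:**
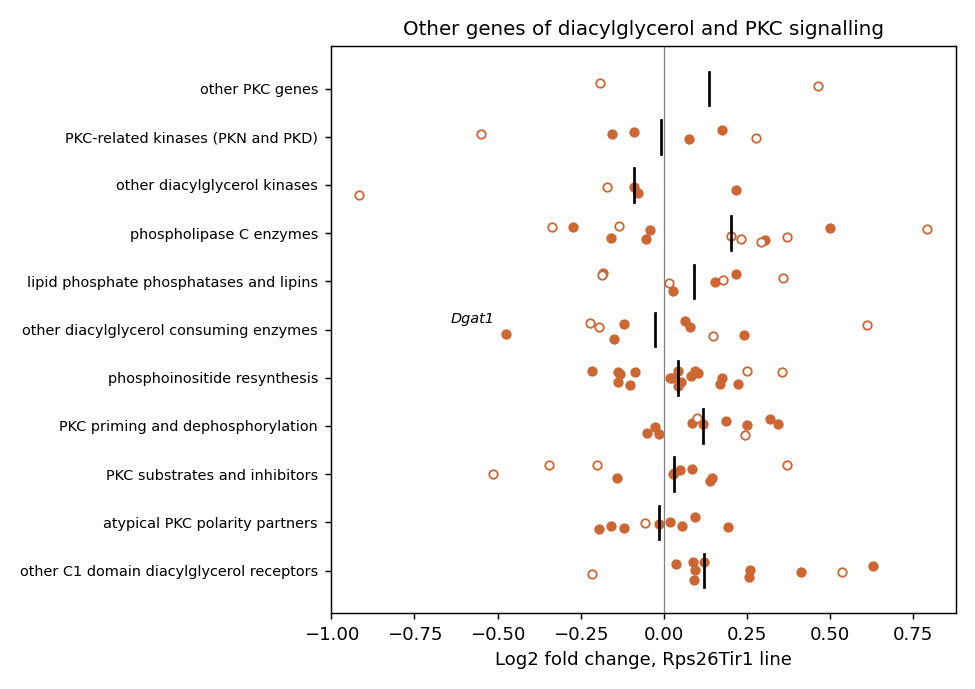
Log2 fold change in the Rps26Tir1 line (x axis) of the 105 measured genes in 11 lists of diacylglycerol and kinase C signalling (y axis); filled points have average expression of at least 3, open points less, and black bars are list medians. Dgat1, at -0.48, is the gene with adjusted p under 0.05, and list medians lie between -0.09 and 0.20.

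Markers of fibroblast feeder cells were looked at beside these results. In the Rps26Tir1 line Col1a1 had -1.42 with adjusted p = 0.0254 per the authors' deposited table, Thy1 had -0.28 and Pdgfra -0.09, while Pdgfrb had 0.38. Thus 1 of 4 measured markers passed, where 1.64% of all genes did. By sign 3 of 4 were negative, where 53% of all genes were positive. Of the 4 markers 1 averaged at least 3 in expression. Col1a1 had an average expression of 0.15, and its level in each group is not among the values used. The part of such cells in the Dgke and Prkcb values was not tested. None of the 10 stem cell markers passed in either line, and Zfp42 had the smallest p of them in the Rps26Tir1 line, at 0.21 with adjusted p = 0.347 per the authors' deposited table.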

How the data were processed

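The data are 24 paired-end TruSeq libraries of polyadenylated RNA extracted with Trizol, per the labels' protocols, in 12 groups of 2. Not given in the sources used here: aligner, counting, genome build, normalization and model. Per the file headers, the deposited table holds a log fold change and an average expression, read as log2 values from column names of the limma type, and a p-value and an adjusted p-value for each line. Average expression was the same for both lines. The tests planned on values per library were not run, and the authors' deposited statistics were used in their place. The adjusted p-values of the Rps26Tir1 line correspond to 15864 genes tested.

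Computed here were standard errors (fold change over the t-statistic implied by its p-value), with 29 degrees of freedom, an estimate (of the integers 8 to 60, the one giving the steadiest ratio of errors between lines). From these came 95% intervals and the moderated test of the line difference, two-sided. The procedure was tried on simulated data fitted with limma 3.58.1 in R 4.3.3. The simulated errors were independent, so that trial could not check the independence of errors assumed between the lines. Lengths, coding regions and 31-base stretches came from GENCODE M21 for the transcript each row names (13504 matched), with Python 3.11.15. Level per kilobase is average expression minus log2 of the transcript length in kilobases, a rescaling that assumes the deposited average is not already per length. The genes named are the 10 members, Rack1, listed genes that passed, the gene with the smallest Rps26Tir1 p-value of each list, and the 5 nearest to Dgke. The overlapping Pmel and Usp40, the marker genes Pou5f1, Nanog, Thy1, Pdgfra and Pdgfrb, the pseudogene Prkcz2, and Unc13d, Rasgrp4 and Cdc42bpg were named beside that rule, and 1 result is not reported here. Members and lists were chosen with earlier results of these data known. Alternatives were another adjustment, an expression minimum of 3, removal of trends and other degrees of freedom.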

Additional observations from a re-analysis of the deposited data

How the results depend on the processing

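Members passing numbered 0 in the FreeTir1 line, 1 in the Rps26Tir1 line and 0 for the difference. These counts were the same under each alternative that could be run. The expression minimum left out Prkca, Prkcb and Prkce, so its counts cover the other 7 members. Dgke was the member that passed each time in the Rps26Tir1 line, with adjusted p from 0.00890 to 0.0182. It was listed for its value there, and some alternatives only re-adjusted the same p-values, so its passing is a description. In the FreeTir1 line 0 genes of the whole table passed under any setting, so the 0 for members there carries no further information. The count of other pathway genes passing in the Rps26Tir1 line went from 1 to 0 with average expression of at least 3, when Dgat1 was lost. Once trends in length, GC content and expression were taken out, the FreeTir1 values of Prkcb, Prkcz and Dgkz changed sign, to 0.0200, 0.0197 and -0.0084, and all were within their error of 0; the cause was not tested. Over all genes the 222 calls of the Rps26Tir1 line became 90 with average expression of at least 3 and 128 with trends removed. The 1 call of the difference became 0 with 20 degrees of freedom or the expression minimum, 2 with 40 degrees of freedom and 19 on dividing the statistic by its spread (0.90). No paired analysis was possible because the table holds no values per library; for the same reason the replicate block and leaving out replicates were not run. Depth is unknown, and standard errors of the scarce Prkca, Prkcb and Prkce limit what can be said of them.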
